A study of Caenorhabditis elegans with 2 samples.

Results

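Distal intergenic peaks are the XBP-1 binding regions that lie away from genes and away from their promoters. Of the 3641 peaks called in L1 larvae of the nematode Caenorhabditis elegans, 666 belonged to this class, or 18.3% (95% Wilson interval 17.1% to 19.6%). A peak was counted as distal when its summit, the position of highest signal, lay in no annotated gene of any kind and outside the promoter window of every protein-coding transcript, set from 1000 bp upstream to 200 bp downstream of its start. Another 2395 summits lay in a promoter window, and 580 lay in genes outside such windows. No measured value of a peak other than its place entered this choice.

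The data are chromatin immunoprecipitation followed by sequencing (ChIP-seq) of whole hermaphrodites. Both libraries came from strain OP506, genotype unc-119(tm4063) III; wgIs506, in which XBP-1 carries GFP and FLAG at its C-terminus and was precipitated with an antibody against GFP. One label field names the antibody xbp-1 instead. The larvae were starved as L1 after bleaching and taken 6 h after this synchronization, with unknown age beyond that. The 2 libraries are biological replicates of 1 group and share every allele, so there is no second condition. The tagged protein comes from the transgene, the whole animal mixes tissues, and the immunoprecipitation control was not used here. Peaks therefore cannot be given to a tissue.

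XBP-1 belongs to the basic leucine zipper (bZIP) family and drives a branch of the unfolded protein response. When misfolded proteins collect in the endoplasmic reticulum (ER), the sensor IRE-1 splices xbp-1 mRNA, and the protein made from it raises transcription of chaperones and other secretory genes. In the compact worm genome most regulatory sequence lies close to starts, and distal elements can act as enhancers, as promoters of non-coding genes, or as promoters of a distant gene. Many worm mRNAs are trans-spliced to a short leader, so an annotated start can lie downstream of the place where transcription begins.

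Summit sequences reaching 50 bp to each side are given for 6 of the 7 strongest distal peaks, together with those of W02H3.3 and xol-1, which were added after their letters were seen. Each is named by the nearest protein-coding start, on the forward strand of ce11, with words searched for below in capitals: CCACGT beside ZK899.6, and in F20B6.9, W02H3.3 and xol-1 the word of the dosage compensation complex described with chromosome X.

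hif-1, rank 49, chrV:20778370-20778470: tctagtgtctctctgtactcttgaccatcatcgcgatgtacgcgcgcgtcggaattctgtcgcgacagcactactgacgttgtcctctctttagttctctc

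F20B6.9, rank 54, chrX:4209212-4209312: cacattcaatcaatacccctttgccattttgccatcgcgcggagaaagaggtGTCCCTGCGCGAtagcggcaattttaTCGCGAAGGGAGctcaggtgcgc

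sup-26, rank 56, chrIII:4282154-4282254: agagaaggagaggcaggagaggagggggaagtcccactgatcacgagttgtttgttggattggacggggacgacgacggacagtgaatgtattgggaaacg

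ZK899.6, rank 67, chrX:9465823-9465923: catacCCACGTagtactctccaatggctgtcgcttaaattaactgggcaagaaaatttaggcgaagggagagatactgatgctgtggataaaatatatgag

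K02D3.1, rank 78, chrX:13700821-13700921: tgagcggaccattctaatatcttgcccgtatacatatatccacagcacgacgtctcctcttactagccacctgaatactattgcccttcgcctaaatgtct

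ins-13, rank 85, chrII:5543515-5543615: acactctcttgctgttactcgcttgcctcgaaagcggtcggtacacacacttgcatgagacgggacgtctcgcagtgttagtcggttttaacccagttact

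W02H3.3, rank 93, chrX:11094152-11094252: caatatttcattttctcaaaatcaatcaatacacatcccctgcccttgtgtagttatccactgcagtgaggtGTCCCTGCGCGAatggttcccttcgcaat

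xol-1, rank 100, chrX:8036391-8036491: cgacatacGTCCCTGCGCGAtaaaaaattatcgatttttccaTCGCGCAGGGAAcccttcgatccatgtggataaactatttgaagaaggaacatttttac

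The second set shows TGACGTG, the core of the element bound by XBP-1 in the unfolded protein response, at 9 of the 10 strongest distal summits that hold it. Capitals mark this word and any other searched word in the window.

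sup-26, rank 318, chrIII:4282353-4282453: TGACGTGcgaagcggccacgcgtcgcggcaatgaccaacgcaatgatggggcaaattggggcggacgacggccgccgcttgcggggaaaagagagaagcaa

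fce-2, rank 386, chrV:20421679-20421779: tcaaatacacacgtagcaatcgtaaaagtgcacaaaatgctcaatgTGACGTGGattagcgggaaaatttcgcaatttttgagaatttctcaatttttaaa

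let-756, rank 811, chrIII:6402436-6402536: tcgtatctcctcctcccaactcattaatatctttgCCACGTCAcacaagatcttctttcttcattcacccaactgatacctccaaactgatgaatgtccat

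ret-1, rank 1040, chrV:14848743-14848843: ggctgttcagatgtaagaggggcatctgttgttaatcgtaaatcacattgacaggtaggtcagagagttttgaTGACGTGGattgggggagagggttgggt

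snu-23, rank 1161, chrIII:7771167-7771267: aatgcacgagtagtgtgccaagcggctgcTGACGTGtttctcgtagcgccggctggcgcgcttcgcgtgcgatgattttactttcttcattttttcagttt

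Y56A3A.33, rank 1192, chrIII:12009872-12009972: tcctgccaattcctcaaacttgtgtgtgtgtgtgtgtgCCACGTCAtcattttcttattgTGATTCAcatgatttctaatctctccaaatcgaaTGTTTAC

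lpin-1, rank 1353, chrV:13657495-13657595: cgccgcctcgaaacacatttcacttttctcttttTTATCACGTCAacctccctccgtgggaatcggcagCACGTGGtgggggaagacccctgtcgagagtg

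pitp-1, rank 1532, chrIII:3532190-3532290: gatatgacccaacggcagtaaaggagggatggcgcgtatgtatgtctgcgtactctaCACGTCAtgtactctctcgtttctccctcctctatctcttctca

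nra-1, rank 1707, chrIV:17285437-17285537: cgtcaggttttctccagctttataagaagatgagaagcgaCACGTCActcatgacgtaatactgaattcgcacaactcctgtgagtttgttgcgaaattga

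Distal peaks were weaker than promoter peaks. Peaks were ranked by the signal value that the authors' peak caller gave them, whose scale is not stated and which compares peaks within this list alone. The median rank of the distal peaks was 2171 of 3641 (95% interval 2033 to 2312, from order statistics), against 1621 (1545 to 1692) at promoters and 2200 (2049 to 2360) inside genes. Their signal ran from 73.4 to 1094 with a median of 125.7, and the best of them stood at rank 49. The strongest promoter peak had a signal of 34888. The 95% intervals of the distal and promoter medians were apart, while those of distal peaks and peaks inside genes overlapped.

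The distal share grew as peaks became weaker. It was 9% (Wilson 4.81% to 16.2%) among the 100 strongest peaks and 12% among the 400 that followed. It then reached 17.8% at ranks above 1000 and up to 2000 and 22.3% (20.4% to 24.4%) from there to rank 3641. Among the 22447 regions of the pooled relaxed list that the thresholded list left out, 24.4% were distal by the same rule. Sequence open to the rule, meaning every base that is in no gene and no promoter window, is 21.6% of the genome, so distal summits were below their share of sequence in the strong ranks and near it in the weak ones. All intervals here cover counting error over peaks and treat them as independent, and depth is unknown because the lists hold no read totals.

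**Figure D1:**
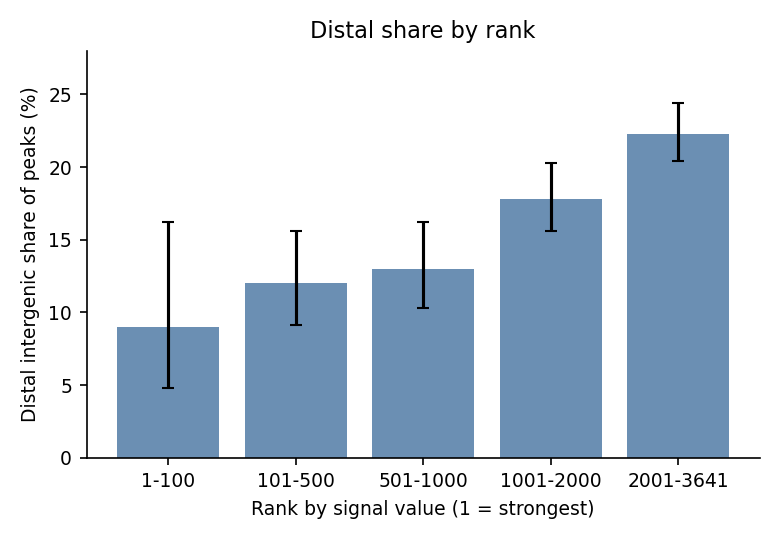
Share of thresholded peaks that were distal intergenic (y, percent) in bins of rank by signal value (x, 1 is the strongest). Bars are shares and lines their 95% Wilson intervals, and the share climbs from 9% in the first bin to 22.3% in the last.

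The thresholded list was made from the 2 replicates, so the overlaps and the correlation given here describe it and are no separate support. Every distal peak overlapped a region of the relaxed list of each replicate. A stricter measure asked whether it overlapped one of the 3641 strongest regions in both replicates by at least 1 bp. That held for 543 distal peaks, or 81.5% (78.4% to 84.3%), against 85.4% of the whole list and 87.9% (86.6% to 89.2%) of promoter peaks. Peaks inside genes, of similar rank to distal ones, had 79.3% (75.8% to 82.4%). As a description over peaks that share 2 libraries, Spearman's rho between the replicates' signal values was 0.768 for distal peaks and 0.898 for promoter peaks. For peaks inside genes it was 0.752. Few distal summits shared an interval: the 666 summits came from 662 distinct intervals and 646 remained after overlapping intervals were merged.

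**Figure D2:**
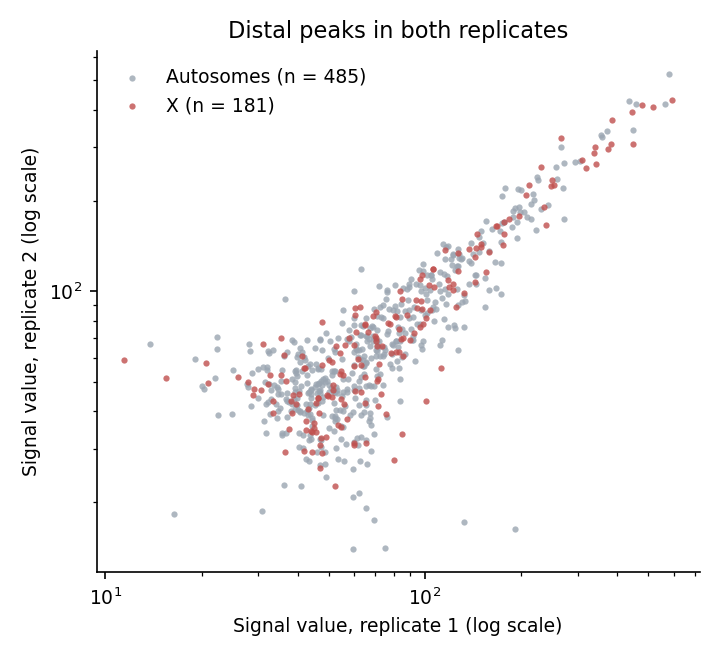
Signal value of each distal peak in replicate 1 (x) and replicate 2 (y), both on log scales, with peaks on X in red (n = 181) and on autosomes in grey (n = 485). Strong peaks lie close to one line in both replicates, and the scatter widens among weak ones.

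The strongest distal peak lay 1987 bp upstream of hif-1, the hypoxia-inducible factor that adapts animals to low oxygen, on chromosome V between the starts of F38A6.4 and hif-1. Its signal was 577.75 in replicate 1 (rank 50 there) and 523.4 in replicate 2 (rank 48), and the hif-1 promoter itself had a much weaker peak, at rank 2424. The next lay 1777 bp upstream of F20B6.9 on X, with 594 and 431, in the gap that also borders hpk-1, which encodes a homeodomain-interacting kinase. Both replicates placed these peaks among their 100 strongest.

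A peak 1980 bp upstream of sup-26, which encodes an RNA-binding protein, had 563 in replicate 1 and 419 in replicate 2. A peak 2528 bp downstream of the ZK899.6 start had 517 and 407. The peak farthest from a start among the 12 strongest was 6036 bp upstream of K02D3.1, with 476 and 413. Ranks in the 2 replicates differed by at most 30 places in these 3.

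The peak beside nlp-40, a neuropeptide gene of the intestine, lay on chromosome I between 2 gene ends, 1905 bp past the nlp-40 start, in a gap of 646 bp before rcor-1. It measured 434 and 428. The peak assigned to ins-13, an insulin-like peptide gene, lay 33 bp upstream of sls-2.2, 1 of the genes for the SL2 spliced leader RNA, so its nearest protein-coding start is not its nearest start. The other members of the strongest 12 were beside W02H3.3, xol-1, F40E3.3, R03E9.2 and F58D12.3, with signals from 698.9 to 837. Their replicate ranks lay between 85 and 173.

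Distal peaks lay upstream more often than sequence alone would place them, and nearer to starts. Of the 666, 488 (73.3%, 69.8% to 76.5%) were upstream of the nearest protein-coding start, against 66% of open sequence, and 178 were downstream. The median distance was 2270 bp (2130 to 2359), with a range of 451 to 16588 bp, against 2657 bp over open sequence. The stretch just beyond the upstream edge of the promoter window held more than its share of sequence, since 224 peaks (33.6%, 30.1% to 37.3%) lay upstream by more than 1000 and at most 2000 bp, which is 24.2% of open sequence. Those more than 5000 and at most 10000 bp from a start made up 10.4% (8.27% to 12.9%) against 16.6% of the sequence.

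The edge of the window cut through a continuous run of peaks. Just outside it were summits 1002 bp upstream of F40E12.1 (signal 128.02), 1011 bp upstream of etr-1, a gene for an RNA-binding protein (141), and 1015 bp upstream of M163.11 (99.8). Just inside it, and so not members, were summits 1000 bp upstream of unc-11 (74.7), a clathrin adaptor gene, and 999 bp upstream of idh-1 (82.7), an isocitrate dehydrogenase gene, and of zig-1 (102.9). At the far end lay a summit 16588 bp past the start of aakg-1, which encodes a gamma subunit of AMP-activated kinase. Its signal was 77.5 in replicate 1 and 57.3 in replicate 2. Summits 16257 bp past the Y23H5B.5 start and 13340 bp upstream of irld-18 followed.

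**Figure D3:**
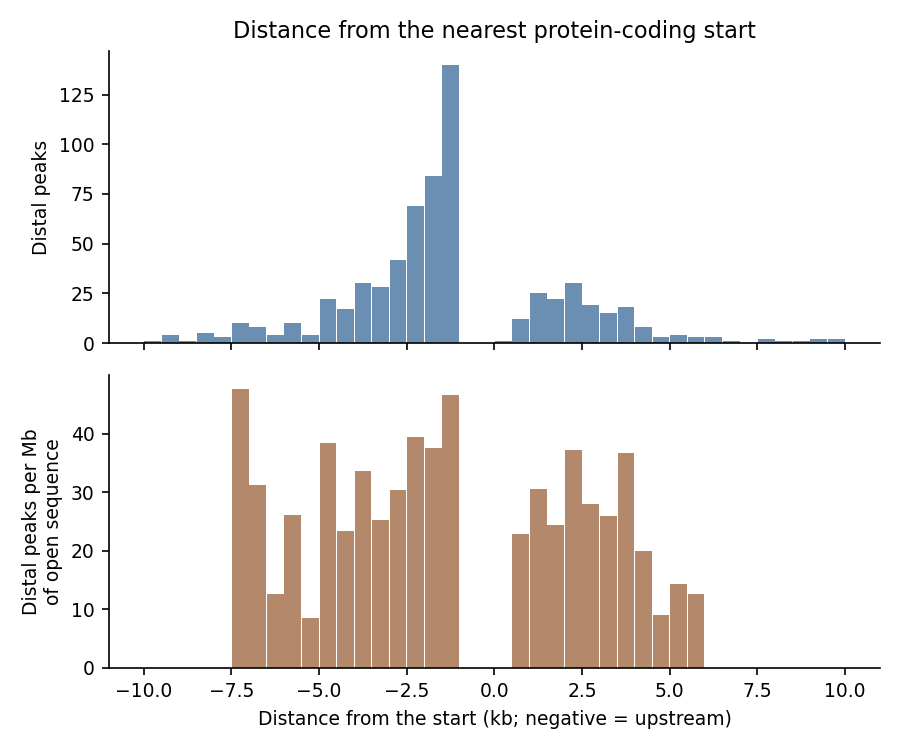
Distal peaks by distance from the nearest protein-coding start (x, kb, negative upstream, 500-bp bins), as counts (top) and per Mb of open sequence (bottom, bins with at least 0.2 Mb). The bins from 1000 bp upstream to the start are empty by the rule, the bin just beyond them has the highest count (140, or 46.7 per Mb, while the sparse bin from 7.5 to 7 kb upstream has 47.6 per Mb from 10 peaks), and peaks beyond 10 kb are not drawn.

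By the arrangement of the flanking genes, gaps between 2 ends held less than their share of sequence, while those between 2 starts or between a start and an end were within counting error of theirs. Gaps between a start and an end held 378 distal peaks (56.8%, 53% to 60.5%, against 53.4% of open sequence). Gaps between 2 starts held 213 (32%, 28.6% to 35.6%, against 31.1%). Gaps between 2 gene ends had 74 (11.1%, 8.94% to 13.7%, against 15.3%). Sequence within 500 bp past a gene end held 16.7% of distal peaks and 15.3% of open sequence, within counting error of each other.

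Strength did not separate by distance from the start. The median rank was 2125 (1930 to 2383) at up to 2000 bp from a start, 2231 (2033 to 2420) from there to 5000 bp and 2028 (1749 to 2586) beyond 5000 bp. Upstream peaks had a median rank of 2232 (2055 to 2377) and downstream ones 2030 (1789 to 2310). The intervals overlapped throughout.

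The 666 peaks had 578 nearest genes, 2.89% of the 19973 protein-coding genes. Of these genes 504 had 1 distal peak, 62 had 2, 11 had 3 and K08F11.1 had 5. Promoters of the nearest genes were also often bound, since 116 of the 578 (20.1%, 17% to 23.5%) had a promoter peak as well. That compares with 15.5% of all protein-coding genes and with 10.5% (9.99% to 11.1%) of the 11487 genes that are nearest to any open sequence. For 104 upstream distal peaks whose gene had both, the distal peak was the stronger one in 43 (41.3%, 32.4% to 51%). The pairing by nearest start is positional and shows no regulation of the gene named.

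Some distal peaks sat at starts of non-coding genes, and close to the start the count was highest for transfer RNA (tRNA) genes. tRNA genes are transcribed by RNA polymerase III from promoters inside the gene. Using the same window around their starts, 53 distal peaks (7.96%, 6.14% to 10.3%) fell at a tRNA gene, against 0.824% of open sequence. Most were very close, since 49 of them lay 1 to 100 bp upstream, at a median of 30 bp upstream for the 53 (written as -30). That stretch holds 7.36% of distal peaks (5.61% to 9.59%) and 0.0959% of open sequence, a ratio of 76.7. The rule bars summits inside any annotated gene, non-coding ones included, so the upstream side of these summits is partly set by it. None of the 53 windows held TGACGTG, which allows a share of up to 5.66%.

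The strongest of these was an interval at chrX:3035994-3036266, rank 320, 48 bp upstream of a tRNA gene, and the next at ranks 400 and 424 were also on X. Their ranks as a group were ordinary for distal peaks, with a median of 1922 (1605 to 2476) and 9 of 53 within the strongest 1000. Of the 53, 36 (67.9%, 54.5% to 78.9%) were on X. X holds 276 of the 612 annotated tRNA genes (45.1%), and 145 of the other 613 distal peaks (23.7%, 20.5% to 27.2%). The 612 were not limited to tRNA genes whose upstream sequence is open to the rule. Open sequence is 29.3% of X and 21.6% of the genome, so 45.1% is not a like background for 67.9%.

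Genes for small nucleolar RNAs (snoRNAs), which guide chemical modification of ribosomal RNA, gave a similar picture. Of the distal peaks 29 (4.35%, 3.05% to 6.18%) fell in their windows, against 0.325% of open sequence, and 18 lay within 100 bp upstream (2.7% against 0.0339%). Small nuclear RNA genes had 5, among them spliced leader genes, with 3 within 100 bp upstream. At sls-2.2 the same interval held a summit 33 bp upstream at rank 85 and another 169 bp downstream at rank 506. The neighbouring sls-2.3 had a peak 58 bp upstream at rank 2681, and sls-2.9 on chromosome I one 102 bp upstream at rank 1922.

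MicroRNA genes had 10 distal peaks in their windows (1.5%, 0.818% to 2.74%, against 0.452%), with 0 within 100 bp upstream, which allows up to 0.45%. The strongest were 155 bp upstream of cel-mir-53 (rank 636), 705 bp upstream of cel-mir-52 (rank 902) and 251 bp upstream of cel-mir-80 (rank 1197). These annotated starts are those of the hairpin, not of the primary transcript. Genes annotated simply as ncRNA had 118 (17.7%, 15% to 20.8%, against 10.5%). Windows of the classes overlap, so these partly recount peaks at tRNA and snoRNA starts. Genes of Piwi-interacting RNAs had 34 (5.11%, 3.68% to 7.05%) against 8.75% of open sequence, and pseudogenes 16 (2.4%, 1.48% to 3.87%) against 4.75%. Over every non-coding class 212 distal peaks (31.8%, 28.4% to 35.5%) were in a window, against 24.6% of open sequence, which leaves 454 at no annotated start.

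**Figure D4:**
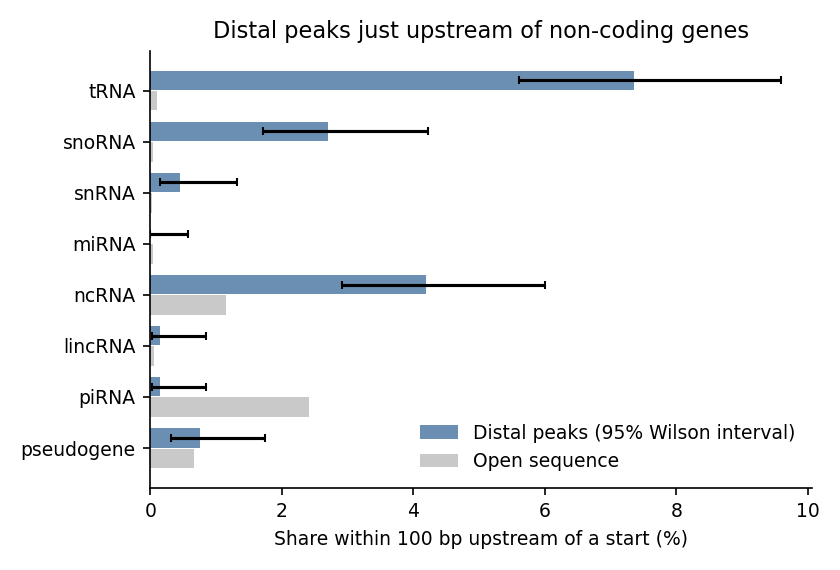
Share of distal peaks (blue, with 95% Wilson intervals) and of open sequence (grey) that lie within 100 bp upstream of a start (x, percent) for each class of non-coding gene (y). tRNA genes stand at 7.36% against 0.0959%, snoRNA genes at 2.7% against 0.0339%, and Piwi-interacting RNA genes at 0.15% against 2.42%.

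The density of distal peaks differed among chromosomes when counted per Mb of open sequence. It was 41.4 (exact Poisson interval 33.8 to 50.2) on III and 40.6 (33.1 to 49.2) on I. X had 34.9 (30 to 40.3), IV 27.9 (23.1 to 33.3) and II 25.6 (20.2 to 31.9), while V, at 19.8 (15.7 to 24.6), was lowest. Along the chromosomes the central part, cut at equal lengths, had 36.8 per Mb and the outer parts 27.9. The interval of V lay below those of I, III and X, and neighbours in the order overlapped. V also had the fewest thresholded peaks of all kinds, 505, and 15.8% of them were distal.

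X carried 181 distal peaks, 27.2% (23.9% to 30.7%), near its 24% of open sequence. Of the 654 thresholded peaks on X, 27.7% were distal, against 18.3% of the whole list. Open sequence makes up 29.3% of X and 21.6% of the genome, so both shares were below their share of sequence. At ranks 1 to 500, 22 of the 57 distal peaks were on X (38.6%, 27.1% to 51.6%). That interval overlapped the one for all distal peaks. Several of these held a word known from another protein. In hermaphrodites the dosage compensation complex loads onto both X chromosomes at recruitment sites and lowers transcription, and those sites carry the MEX motif, searched here on both strands with up to 2 letters different. The word was chosen after the summit sequences had been seen.

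MEX-like words were in 12 of 181 distal windows on X (6.63%, 3.83% to 11.2%) and 4 of 485 on autosomes (0.825%, 0.321% to 2.1%), against 1.35% of all thresholded peaks. On X, promoter peaks had them in 2.56% (1.35% to 4.79%) and other peaks inside genes in 4.13% (1.78% to 9.31%), and these intervals overlapped that of distal peaks. At most 1 letter away, the share was 3.31% both for distal peaks and for peaks inside genes on X. In tiles of open sequence as wide as these windows the share was 0.119% on X and 0.162% on autosomes, so at this tolerance the word was not commoner in open sequence of X. With at most 1 letter different the tiles had it in 0.0266% on X and 0.00268% on autosomes. At that limit 6 distal windows on X held it and 0 of 485 on autosomes, which allows up to 0.619%. With up to 2 letters different it was in 8 of the 22 distal windows on X at ranks 1 to 500 and in 0 of 35 on autosomes, which allows up to 8.57%, and with at most 1 letter in 5 of the 22. Since the word was picked from strong summits that are themselves counted here, all these shares, by rank or by chromosome, are a description.

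The peak upstream of F20B6.9 (rank 54) held this word, as did the one 3984 bp past the W02H3.3 start (rank 93; 446 in replicate 1 and 393 in replicate 2). At rank 100 came a peak 4872 bp upstream of xol-1, the X-linked switch gene whose activity sets male fate, with 448 and 309. The windows of F20B6.9 and xol-1 each hold 2 such words. Below them came peaks beside gtr-1 (rank 176), F22H10.2 (185), T27A8.7 (212), fbxb-58 (380) and the cuticle collagen gene col-185 (383). The 12 ran from rank 54 to rank 2272. Whether dosage compensation has a part in these peaks was not tested.

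Words of the XBP-1 type were commoner at distal summits than beside them, though at a level near that of all peaks. TGACGTG, the UPR element core, was in 27 of 666 distal windows (4.05%, 2.8% to 5.83%), against 3.43% of all thresholded peaks and 3.51% at promoters. Windows centred 500 bp away had it in 0.601% and tiles of open sequence in 0.738%. The 27 peaks had a median rank of 2117 (1353 to 2878), and 23 were upstream of the nearest start. Each word was counted on both strands, and a match is a description of the letters.

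The strongest of them was a second summit at sup-26, rank 318, in the same interval as the peak at rank 56. It measured 208 in replicate 1 and 176 in replicate 2. The word lay 1 bp from the summit at fce-2, a gene for a protease of prenylated proteins (rank 386; 219 and 201). It lay 11 bp from the summit upstream of let-756, which encodes a fibroblast growth factor (rank 811; 122 and 132). The pamn-1 peak on chromosome I, beside a gene for peptide amidation, followed at rank 882, and the ret-1 peak, beside the reticulon gene of the ER, at rank 1040. Both signals of each were far below those of the hif-1 peak. The peaks beside snu-23, Y56A3A.33, lpin-1, pitp-1 and nra-1 had ranks from 1161 to 1707. Of these, lpin-1 makes lipin, an enzyme of phospholipid and fat synthesis, and pitp-1 a phosphatidylinositol transfer protein.

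The related words gave higher distal shares. The E-box CACGTG was in 51 distal windows (7.66%, 5.87% to 9.93%), against 5.47% of all peaks, 4.68% (3.9% to 5.6%) at promoters and 1.37% of tiles. CCACGT, which covers 1 arm of the mammalian ER stress response element (ERSE), was in 57 (8.56%, 6.66% to 10.9%), against 5.93% and 2.13%, and promoters had 5.05% (4.24% to 6%). The intervals of distal and promoter peaks did not overlap for either word. Peaks inside genes were not counted apart, so these higher shares are not shown to be particular to distal peaks. The words share letters, since 27 windows held both and 13 held TGACGTG together with CCACGT. The cyclic AMP response element (CRE) TGACGTCA was in 14 (2.1%, 1.26% to 3.5%), near the 1.68% of all peaks. At least 1 of the 4 words was in 105 distal windows (15.8%, 13.2% to 18.7%), against 12.6% of all peaks and 3.72% of tiles.

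The GAGA repeat GAGAGAGA was the commonest word searched at distal summits. It was in 73 distal windows (11%, 8.81% to 13.6%), against 6.62% of all peaks, 5.14% (4.32% to 6.09%) at promoters, 1.13% of windows 500 bp away and 0.849% of tiles. It was rarer on X, in 8 of 181 windows (4.42%, 2.26% to 8.48%), than on autosomes, in 65 of 485 (13.4%, 10.7% to 16.7%). Peaks inside genes were not counted apart for this word either. A pair of examples, chosen after the values were seen, shows the repeats in capitals on either strand. The first is in the gap upstream of din-1, which encodes a nuclear receptor co-repressor, with 215 in replicate 1 and 195 in replicate 2.

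din-1, rank 419, chrII:11635871-11635971: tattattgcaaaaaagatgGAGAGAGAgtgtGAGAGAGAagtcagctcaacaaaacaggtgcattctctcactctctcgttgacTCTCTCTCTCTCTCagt

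Y17D7C.2, rank 455, chrV:18723777-18723877: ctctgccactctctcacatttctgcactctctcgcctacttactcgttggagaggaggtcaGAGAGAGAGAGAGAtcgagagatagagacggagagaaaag

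Each of the remaining words was in under 5% of distal windows. The GATA site TGATAA was in 29 distal windows (4.35%, 3.05% to 6.18%), against 3.32% of all peaks but 9.01% of tiles. The forkhead word GTAAACA was in 14 (2.1%) against 2.44%. The AP-1 word TGANTCA was in 20 (3%, 1.95% to 4.59%), above the 1.79% of all peaks and near the 2.85% of tiles. The word of the tRNA B box, a promoter element inside tRNA genes, was in 3 (0.45%) against 0.687%. Since the rule bars summits inside genes, this share cannot tell whether peaks sit at the element. Base composition changed sharply at the summit, with a median of 46.5% G+C (46.5 to 47.5) against 32.7% both in windows 500 bp away and in tiles. Promoter summits had 47.5%. Word shares against tiles are not corrected for this difference. Windows that were mostly repeat-masked made up 7.06% (5.35% to 9.26%) of distal summits and 38% of tiles.

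**Figure D5:**
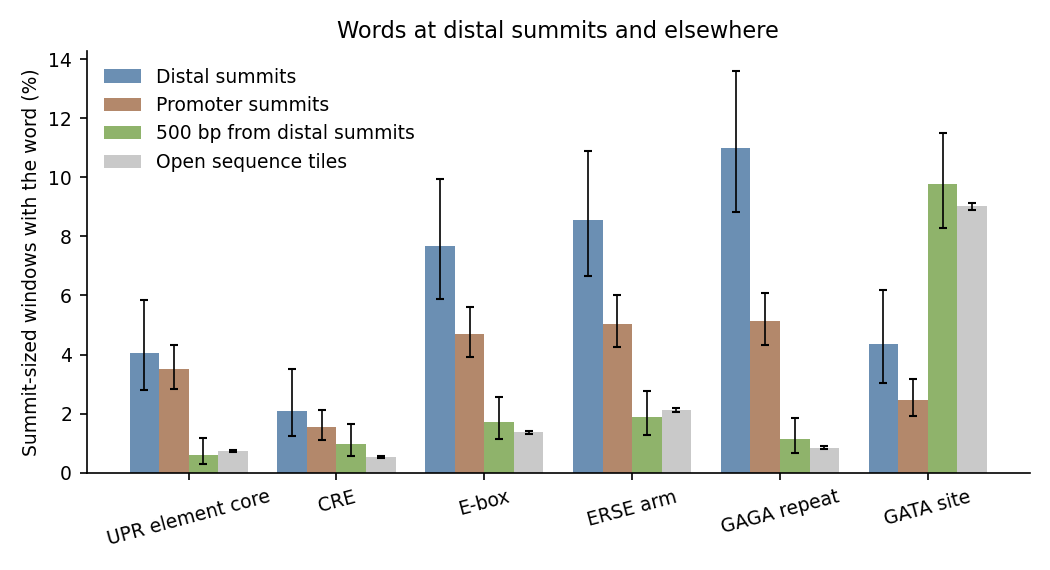
Share of windows of 50 bp to each side (y, percent) that hold a word on either strand, for distal summits, promoter summits, windows 500 bp from distal summits and tiles of open sequence, with 95% Wilson intervals. The letters of each named word are given in the text, and the distal share of the GAGA repeat, 11%, is the highest among the distal and promoter summits drawn.

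Some distal peaks lay near another. Linking summits at most 10 kb apart put 232 of them with another distal peak and left 434 alone, in 75 pairs, 14 groups of 3, 6 of 4, 2 of 5 and 1 of 6. The median distance to another distal peak was 25263 bp (21358 to 29302), and to any thresholded peak 4688 bp (3933 to 5829). No such grouping was computed for all peaks or for open sequence, so these counts have no background. Summits of overlapping intervals counted as separate peaks, as at K08F11.1 and mdl-1.

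The group of 6 lay on X in the 9049-bp gap between the starts of R03E9.2 and mdl-1, over 5414 bp. mdl-1 encodes a MAD-like helix-loop-helix repressor, and its own promoter had a peak at rank 1076. One member stood out, 4481 bp upstream of R03E9.2 at rank 123 with 385 in replicate 1 and 368 in replicate 2, and its window held CACGTG. The other 5 had ranks from 2038 to 3161, with values of 11.4 to 84.8 in replicate 1 and 33.6 to 66.3 in replicate 2. The groups of 5 were both on IV, at K08F11.1 (best rank 408, over 7481 bp) and between rho-1, a small GTPase gene, and the bZIP gene zip-7 (best rank 986). A group of 4 on III joined the sup-26 peaks.

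Of 32 genes of the unfolded protein response and of ER folding, 3 were nearest to a distal peak (9.38%, 3.24% to 24.2%). They were nearest to 0.45% of distal peaks (0.153% to 1.32%) and to 0.118% of open sequence. The ire-1 peak lay 1390 bp upstream on chromosome II (rank 2127; 57.75 and 74.4). Those of the disulfide isomerase genes pdi-6 and pdi-2 lay 2432 bp and 2478 bp past the start, with ranks 1843 and 3505. The promoters of pdi-6 and ire-1 had stronger peaks of their own, at ranks 4 and 1499. Ribosomal protein genes had 1 of 78 (rps-25) and histone genes 0 of 72, which allows up to 4.17%. Each list's share is read against the 2.89% of all genes, and no list was tested.

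Several transcription factor families also had shares above that of all genes. Of 37 basic helix-loop-helix genes listed, which do not include mdl-1, 5 were nearest (13.5%, 5.91% to 28%). First came hif-1, then mml-1, a Mondo-type factor (rank 472; 222 and 160), hlh-29 (rank 712) and the proneural gene lin-32 (rank 1436). Of 28 bZIP genes 5 were nearest (17.9%, 7.88% to 35.6%). They included fos-1 (3100 bp upstream, rank 344; 225 and 234) and atfs-1, the factor of the mitochondrial unfolded protein response (3905 bp past the start, rank 458; 198.4 and 183). Nuclear hormone receptor genes gave 20 of 274 (7.3%, 4.77% to 11%), led by nhr-20, nhr-88, nhr-35 and nhr-1, with ranks from 297 to 589. These receptor genes were nearest to 3.3% of distal peaks (2.19% to 4.95%) and to 1.98% of open sequence. For basic helix-loop-helix genes the shares were 1.05% (0.51% to 2.15%) and 0.475%, and for bZIP genes 0.901% (0.414% to 1.95%) and 0.217%.

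Most other lists gave few genes, with shares on either side of that of all genes. Some lists above it by gene were below their share of open sequence. These were homeobox (0.45% of distal peaks against 1.22%), axon guidance (0.3% against 0.831%) and GATA, T-box, forkhead and Sox genes (0.45% against 0.731%). The signalling list had 0.45% against 0.398%. All 4 were within counting error of their sequence. Chemoreceptor genes, the largest family listed, gave 6 of 1310 (0.458%, 0.21% to 0.996%), though 4.03% of open sequence is nearest to one. Homeobox genes gave 3 of 92 (3.26%, 1.12% to 9.15%), with ceh-43, ceh-22 and ceh-48 at ranks 2193 to 2506. The GATA, T-box, forkhead and Sox list gave 3 of 53 (5.66%, 1.94% to 15.4%), with fkh-7 first (rank 630). Neuropeptide and insulin-like genes gave 3 of 144, namely nlp-40, ins-13 and flp-19. Signalling genes gave 3 of 42 (7.14%, 2.46% to 19%), among them sma-9, a co-factor of TGF-beta signalling (2941 bp upstream, rank 187; 343 and 265) and let-756. Axon guidance genes gave 2 of 51 (3.92%, 1.08% to 13.2%), cdh-9 and plx-1, and cuticle collagen genes 4 of 176, among them col-185 and dpy-10.

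Of the marker genes of 6 tissues, neurons had 4 of 12. They were the peptide-processing gene egl-3, the syntaxin gene unc-64, the synaptobrevin gene snb-1 and unc-31, which serves dense core vesicle release, all with upstream peaks 1066 to 2439 bp away and ranks from 1218 to 2618. Pharynx had 1 of 12 (ceh-22), and intestine, hypodermis, body wall muscle and germline had 0 of 12 each, which allows up to 25%. With 12 genes a list, these counts set no order among tissues.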

How the data were processed

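Both replicates were immunoprecipitated with anti-GFP and sequenced, per the labels. The authors deposited peak lists with a signal value and a −log10 q-value for each region, per the file contents. The file lists deposited with the samples say that relaxed regions of each replicate and of the pool led to a list thresholded by irreproducible discovery rate. Not given in the sources used here are the aligner and the peak caller. Signal ranked regions within 1 list, and the deposited −log10 q-value was not used to rank. Depth is unknown, and the control was not used here.

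Summits of the thresholded ce11 list were placed with Ensembl release 115 (WBcel235, the same assembly), and sequence came from RefSeq. The 9 words were searched within 50 bp of summits, in windows centred 500 bp away, and in tiles of equal width of the 21.7 Mb of open sequence. Placement and word search were tested on simulated data. No test between conditions could be made. Intervals are 95% Wilson, exact Poisson or order-statistic intervals, computed with Python 3.11.15, numpy 2.4.6, pandas 2.3.3 and scipy 1.17.1. A share of 0 was limited by 3 counts.

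Members named are the 12 strongest peaks, the 3 farthest from a start, the cluster with most peaks, up to 10 strongest with TGACGTG, 3 on each side of the 1000-bp edge, and up to 4 genes of each of 13 gene lists and 6 marker lists. Examples of non-coding genes, MEX-like words and GAGAGAGA were chosen after the values were seen. The members and lists were chosen with earlier results of these data known. Alternatives were other promoter windows, only the stronger peaks, other word windows and overlap rules, and each replicate left out.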

Additional observations from a re-analysis of the deposited data

How the results depend on the processing

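Of 64 alternatives to 12 results, 46 stayed and 18 moved, where a share or a median moved when it left the 95% interval of the value as reported and a count when it changed by more than 1.5 times. A promoter window of 2000 bp upstream left 427 distal peaks, 61.8% of them upstream, at a median of 3100 bp, with 146 within 10 kb of another. Keeping the stronger 50% of the list left 259, with 100% among the strongest regions of both replicates, 38 within 10 kb of another, a median of 48.5% G+C, 23 within 100 bp upstream of a tRNA start and MEX-like words in 12.7% of X windows. The nearest start of any gene class gave a median distance of 1252 bp. Asking a region to hold at least 50% of the peak, or summits at most 100 bp apart, gave 77.9% and 76.9% among the strongest of both replicates. GAGAGAGA was in 4.95% of windows of 25 bp on either side and 20.6% of those of 100 bp, where G+C was 45.3%. MEX-like words on X were in 3.31% at 1 letter different and 12.7% at 3. The alternatives for tRNA starts and MEX-like words were chosen after seeing the data. The alternatives changed which peaks were kept, the overlap asked for, or the distances, letters and window widths. Why each value moved was not tested.

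With either replicate left out, by taking as many of the strongest regions of the other, distal peaks numbered 663 to 681, 73.9% to 74.4% of them upstream at a median of 2221 to 2262 bp. There were 216 to 232 within 10 kb of another, 27.2% to 28.2% on X, 43 to 49 at tRNA starts, TGACGTG in 3.77% to 3.96% and GAGAGAGA in 10.7% to 11.8% and MEX-like words in 6.49% to 7.49% of X windows. No paired analysis was possible because both replicates belong to 1 group. Limits of depth on weak peaks could not be set without read totals.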
